A study of Rattus norvegicus with 9 samples.

Results

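The genes described here, 10 in number, act in export from the endoplasmic reticulum (ER) and were measured in rat liver: the GTPase Sar1b, the inner coat subunits Sec23a, Sec23b, Sec24a, Sec24b, Sec24c and Sec24d, the outer coat subunits Sec13 and Sec31a, and the exit site scaffold Tfg. They were picked by symbol from 24496 genes in the deposited count table, all 10 were found, and all 10 passed the filter on low counts that left 11924 genes for testing. The choice was made with an earlier analysis of the same libraries known, in which Tfg and Sec23a had stood near the top of the ranking. The differences of the 10 genes between the groups are therefore given as a description. The 10 genes were not tested as a set, and calls of single genes in the fit over all genes are no independent support. RNA came from snap-frozen liver of 9 individual female Wistar rats, with 1 library per rat. Every rat was fed a western diet from 10 weeks of age, lost its ovaries after 6 weeks on it, and received degarelix, which blocks the receptor for gonadotropin-releasing hormone and so lowers the pituitary's own luteinising and follicle-stimulating hormone. Osmotic pumps carried vehicle only in 5 rats (degarelix-only) and follicle-stimulating hormone (FSH) at 6 µg/kg/day in 4 rats (degarelix + FSH). Food was restricted for 12 days and free for 7 days, and the 19-week-old rats were fasted for 4 h before the liver was taken. No rats with ovaries or without degarelix are among these libraries, so ovariectomy and degarelix are common to both groups, and hormone levels are not analysed here.

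Proteins made on the ER leave it in vesicles coated with coat protein complex II (COPII). The GTPase Sar1, once loaded with GTP by the ER protein Preb, recruits Sec23 and Sec24 as the inner layer. Sec24 reads the cargo signals, Sec23 stimulates GTP hydrolysis, and Sec13 with Sec31 forms the outer cage, while Tfg assembles into a scaffold beside the exit sites. Hepatocytes load this route heavily with albumin and with lipoproteins carrying apolipoprotein B. Vertebrates have paralogues of several coat proteins, among them the Sec23a and Sec23b pair and the Sec24a/Sec24b and Sec24c/Sec24d subfamilies.

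The 250 bases before the start sites of Sec23a, Sec23b and Tfg are shown because these 3 genes had the largest differences between the groups by absolute log2 fold change; they were read from RefSeq's promoter table for build GRCr8, in which 8 of the 10 genes have an entry (Sec24c and Sec24d do not). Capitals mark TGACGT, the core of cyclic AMP response elements, in both Sec23 paralogues, and GGGCGG, the core of GC boxes, in Tfg, on either strand. The Sec23a stretch is chr6:82440905-82441154 on the minus strand, Sec23b is chr3:152392433-152392682 on the plus strand, and Tfg is chr11:57354526-57354775 on the plus strand.
Sec23a: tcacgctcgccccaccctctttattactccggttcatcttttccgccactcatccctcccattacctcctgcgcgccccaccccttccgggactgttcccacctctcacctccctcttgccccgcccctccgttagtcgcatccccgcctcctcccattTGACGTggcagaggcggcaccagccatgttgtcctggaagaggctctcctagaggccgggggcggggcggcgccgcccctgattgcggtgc
Sec23b: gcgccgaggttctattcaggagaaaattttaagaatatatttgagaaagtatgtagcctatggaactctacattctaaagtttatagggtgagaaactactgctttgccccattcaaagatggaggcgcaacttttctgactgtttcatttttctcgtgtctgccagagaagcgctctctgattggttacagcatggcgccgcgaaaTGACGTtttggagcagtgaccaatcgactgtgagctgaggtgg
Tfg: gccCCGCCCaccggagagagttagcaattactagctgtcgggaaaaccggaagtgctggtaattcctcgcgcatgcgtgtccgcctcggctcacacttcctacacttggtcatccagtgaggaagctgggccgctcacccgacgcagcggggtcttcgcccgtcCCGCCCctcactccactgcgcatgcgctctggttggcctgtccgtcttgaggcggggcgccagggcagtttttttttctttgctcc
TGACGT was present on either strand in 7.94% of all 33469 windows of 300 bases (250 before to 50 after a start site), and among the 8 genes in Sec23a and Sec23b. In Sec23a it extends to TGACGTGG, which 0.595% of all windows hold. GGGCGG was found in Tfg, Sec23a, Sec31a and Sec13 and in 33.1% of all windows. The short ends of the ER stress response element were searched too: CCACG was in 6 of 8 (Tfg, Sec23a, Sec23b, Sec24b, Sec31a and Sec13) and 31.6% of all windows, and CCAAT in 3 of 8 (Sec23b, Sec24a and Sar1b) and 37.5%. In Sec23a, the end of TGACGTGG reads CCACG on the other strand, so these matches share letters. All the matches above are of letters in short windows, and the count table was made on another build (rn6).

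Sec24a and Sar1b are neighbours that point away from each other, with 61 bases between their RefSeq start sites at chr10:36525304-36525364, shown on the plus strand of GRCr8 (the strand of Sar1b), with no letters singled out.
Sec24a to Sar1b: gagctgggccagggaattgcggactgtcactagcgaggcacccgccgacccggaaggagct
One short stretch thus lies before both the GTPase and a cargo-binding subunit, and how far their transcripts varied together is given with the correlations.

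Library totals ranged from 19295580 to 28672439 counts with vehicle and from 23430807 to 27008941 with FSH. Values are CPM, counts per 1000000 counts of a library, scaled by trimmed mean of M values (TMM) factors, on which 1 read is worth 0.0353 to 0.0532 CPM. The 10 genes had between 364 and 4342 reads in each library. The liver label fitted the hepatocyte list, with 9 of 9 markers measured and Alb alone taking 10.5% to 19.4% of counts, highest in FSH replicate 1 and lowest in FSH replicate 3. Summed endothelial markers (8 of 9 tested) lay at 181.8 to 239.7 CPM with vehicle and 215 to 269 CPM with FSH. Of the 8, 6 had a positive log2 fold change and 2 a negative one, with a median of 0.33. Stab1 (0.43) and Clec4g (0.61) lay wholly above the vehicle range with FSH, which is 2 of 8 against 2.19% of all genes tested. Summed stellate and fibroblast markers (8 of 9 tested) lay at 219 to 286 CPM with vehicle and 171 to 204 CPM with FSH, without overlap. Col3a1 (mean 158 CPM with vehicle, 115 CPM with FSH) gave most of that sum and was the only 1 of the 8 without overlap. All 8 had a negative log2 fold change, from −0.92 to −0.027. Summed blood markers (4 of 5 tested) lay at 75.9 to 157 CPM with vehicle and 121 to 490.1 CPM with FSH. Each of the 4 had a positive log2 fold change, from 0.044 to 1.54 (Hbb), and each overlapped between the groups. Summed Kupffer and macrophage markers (8 of 8 tested) lay at 236 to 644 CPM with vehicle and 404 to 603 CPM with FSH. Vehicle replicate 2 had the lowest of these sums, and the next vehicle rat stood at 473 CPM. Summed cholangiocyte markers (5 of 6 tested) lay at 11.9 to 20.7 CPM with vehicle and 9.33 to 17.7 CPM with FSH. In the lymphocyte list Cd3e, Cd3d and Ms4a1 did not pass the filter, with at most 14, 4 and 16 reads in a library, and the 4 tested markers summed to 2.48 to 6.00 CPM with vehicle and 2.92 to 4.51 CPM with FSH. The part of these other cells in the values below was not tested. In bulk tissue fewer cells of a type and less RNA per cell cannot be told apart.

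Tfg, the exit site scaffold, was lower with FSH, by 0.43 on the log2 scale in the fit over all genes. Sec23b (−0.48) and Sec13 (−0.14) also had negative values. Tfg (ENSRNOG00000001633) stood at 44.8, 44.8, 43.3, 43.4 and 42.9 CPM in vehicle replicates 1 to 5 and at 32.2, 31.2, 33.0 and 33.4 CPM in FSH replicates 1 to 4. Every FSH liver lay well below every vehicle liver, and each group was very tight. Means were 43.8 ± 0.885 CPM (SD, n = 5) among vehicle rats and 32.5 ± 0.951 CPM (n = 4) among FSH rats, a log2 fold change of −0.43 (SE 0.06). It was 1 of 10 genes past an edgeR false discovery rate (FDR) of 0.05, against 0.0335% of all 11924 genes tested, and it is one of the genes that led to the choice of the list. The fold change was between −0.45 and −0.42 when any 1 rat was left out, but the call was lost in each of these 9 fits, namely without vehicle replicate 1, 2, 3, 4 or 5 and without FSH replicate 1, 2, 3 or 4.

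Sec23a, the inner coat subunit that activates the GTPase, was higher with FSH. Sec23a (ENSRNOG00000004657) stood at 46.4, 48.5, 48.4, 53.0 and 47.8 CPM with vehicle and at 72.5, 66.4, 64.7 and 65.9 CPM with FSH. All FSH livers lay above all vehicle livers, with FSH replicate 1 the highest and vehicle replicate 4 the nearest from below. Means were 67.4 ± 3.50 CPM (SD, n = 4) and 48.8 ± 2.51 CPM (n = 5), a log2 fold change of 0.46 (SE 0.07), which missed the FDR of 0.05 in edgeR. Without any 1 rat the value ranged from 0.43 to 0.49.

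Its paralogue Sec23b, which is the subunit mutated in congenital dyserythropoietic anaemia type II, pointed the other way. Sec23b (ENSRNOG00000008411) stood at 34.3, 40.5, 58.7, 25.6 and 37.6 CPM with vehicle and at 26.0, 28.8, 28.9 and 29.5 CPM with FSH. The vehicle rats ranged widely, with replicate 3 far above and replicate 4 below the rest, while the FSH rats were close together near the bottom of the vehicle range. The log2 fold change was −0.48 (SE 0.19), and −0.29 without vehicle replicate 3. The ratio of Sec23a to Sec23b CPM was 1.35, 1.20, 0.826, 2.07 and 1.27 with vehicle and 2.79, 2.31, 2.24 and 2.23 with FSH. These ratios did not overlap between the groups, with vehicle replicate 4 close to the lowest FSH rat. Sec23a was known to differ when the genes were chosen. Its ratio to Tfg could not overlap, since every FSH rat lay above every vehicle rat for Sec23a and below for Tfg. That ratio adds nothing to the values of these genes, which both led to the choice of the list. The ratios of Sec24a to Sec24b, Sec24d to Sec24c, Sec31a to Sec13 and Sec24a to Sar1b overlapped. All these ratios carry no correction for transcript length, so they compare rats and do not say which paralogue is more abundant.

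**Figure D1:**
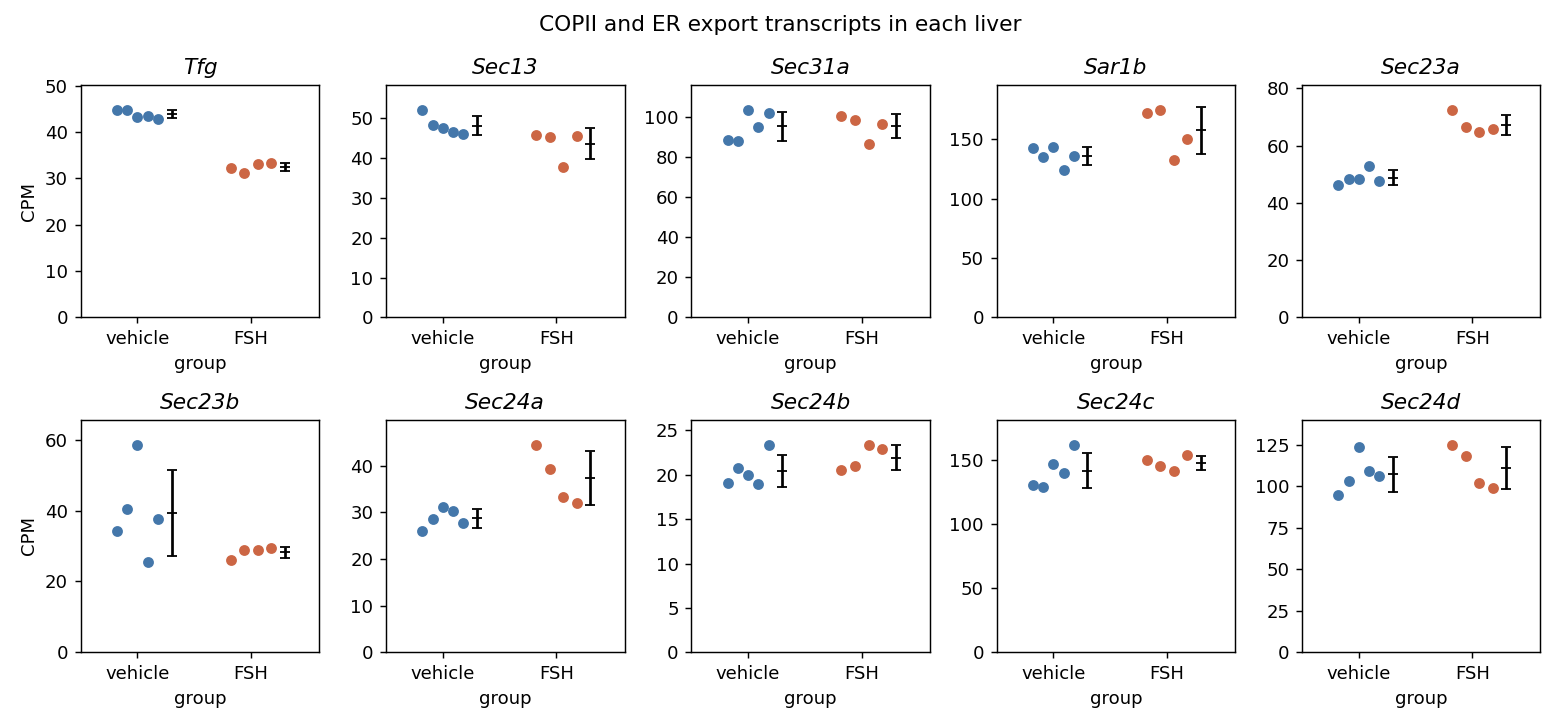
CPM of each of the 10 genes on the y axis, from 0, for 5 vehicle livers (blue) and 4 FSH livers (orange), with 1 point per rat and the group mean ± SD in black beside the points. Tfg lies lower and Sec23a and Sec24a higher in every FSH liver than in any vehicle liver, and Sec23b spans 25.6 to 58.7 CPM among the vehicle rats.

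Among the cargo-binding Sec24 subunits, Sec24a had the largest fold change. Sec24a (ENSRNOG00000004563) stood at 26.0, 28.6, 31.1, 30.2 and 27.6 CPM with vehicle and at 44.6, 39.4, 33.3 and 32.0 CPM with FSH. The groups did not overlap, although FSH replicate 4 was within 1 CPM of vehicle replicate 3. The log2 fold change was 0.38 (SE 0.10), and it ranged from 0.28 without FSH replicate 1 to 0.44 without FSH replicate 4.

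The other 3 Sec24 genes differed little between the groups. Sec24b (ENSRNOG00000023373), the closest relative of Sec24a, ranged from 19.0 to 23.3 CPM with vehicle and from 20.5 to 23.4 CPM with FSH, a log2 fold change of 0.10 (SE 0.08) that fell to 0.066 without FSH replicate 3. Sec24c (ENSRNOG00000009042) ranged from 129 to 162 and from 141 to 154 CPM (0.06, SE 0.08, or 0.025 without vehicle replicate 2 and 0.11 without vehicle replicate 5). Sec24d (ENSRNOG00000014872) stood at 94.6, 103, 123, 109 and 106 CPM with vehicle and at 125, 118, 102 and 99.1 CPM with FSH. Its groups covered nearly the same range (0.05, SE 0.10), and without FSH replicate 1 the value turned to −0.011.

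The outer cage showed small differences. Sec31a (ENSRNOG00000002251), the rod-forming subunit, had a log2 fold change of 0.0019 (SE 0.08) with ranges of 88.1 to 103 CPM with vehicle and 86.4 to 100.1 CPM with FSH, and its sign turned with the scaling. Sec13 (ENSRNOG00000010628), its partner, which is also part of the nuclear pore, stood at 52.1, 48.4, 47.6, 46.6 and 46.0 CPM with vehicle and at 45.8, 45.3, 37.8 and 45.5 CPM with FSH. The FSH rats lay just under the vehicle rats, except for FSH replicate 3, which lay far under them. The log2 fold change of −0.14 (SE 0.08) became −0.084 without FSH replicate 3. Scaled by total counts alone, the Sec13 groups overlapped, at 39.4 to 46.0 CPM with FSH and 44.8 to 51.4 CPM with vehicle.

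Sar1b, the GTPase that starts coat assembly and whose loss in humans causes chylomicron retention disease, had a higher mean with FSH. Sar1b (ENSRNOG00000004820) stood at 143, 135, 143, 125 and 136 CPM with vehicle and at 172, 175, 133 and 151 CPM with FSH. FSH replicates 1, 2 and 4 were above all vehicle rats and FSH replicate 3 was among them. The log2 fold change was 0.21 (SE 0.09), and 0.28 without FSH replicate 3. Its near-identical relative Sar1a was not analysed here, and reads that fit both could have been assigned to either or discarded.

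Over the 10 genes, 7 had a positive log2 fold change, against 50.5% of all genes tested, and 3 a negative one, with a median of 0.06 beside 0.0019 over all genes tested. The CPM of 4 of 10 did not overlap between the groups (Sec23a and Sec24a with FSH above, Tfg and Sec13 with FSH below), against 4.11% of all genes tested (2.19% with FSH above and 1.92% with FSH below). These counts describe genes that were chosen with this comparison known. The summed CPM of the 10 genes ranged from 678 to 766 with vehicle and from 683 to 789 with FSH, so the sum overlapped while single subunits did not.

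**Figure D2:**
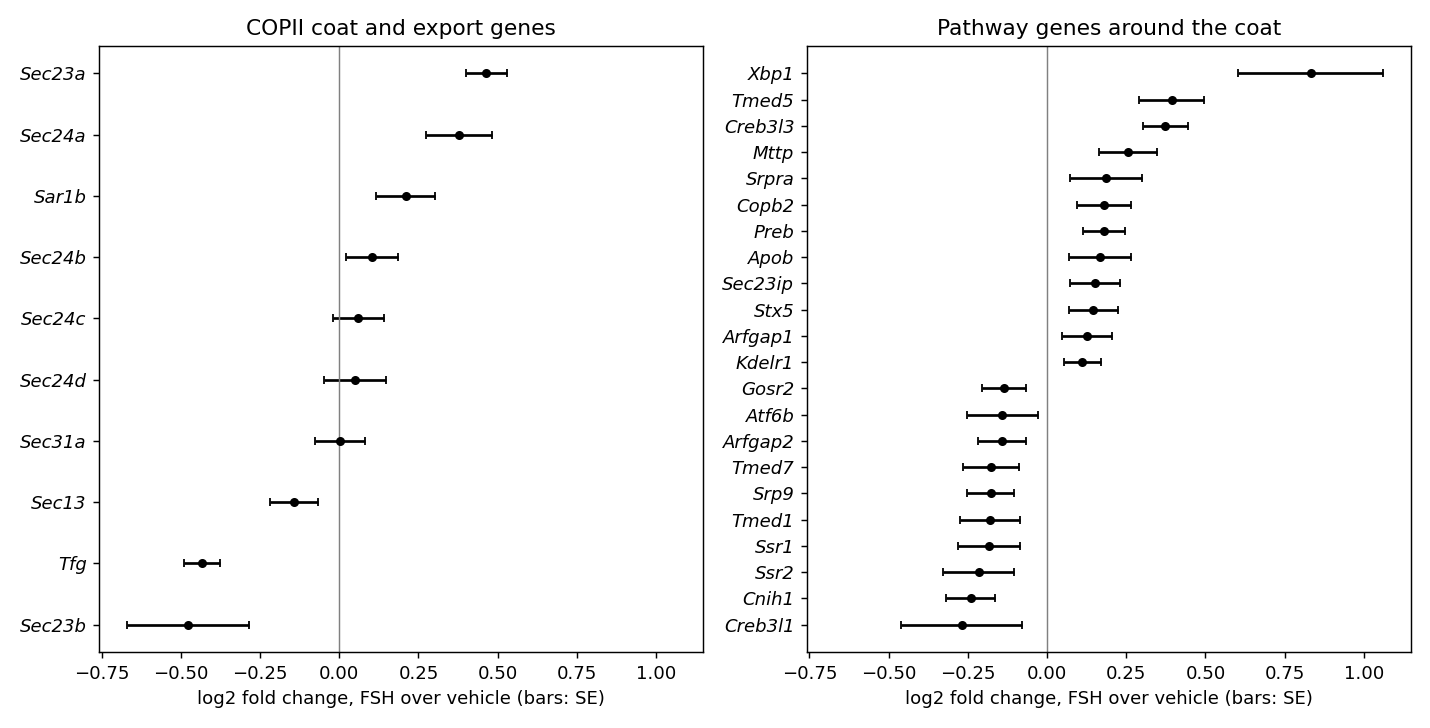
Log2 fold change of FSH over vehicle on the x axis, with bars for 1 standard error (SE), for the 10 COPII and export genes (left) and for named genes of the surrounding pathway (right). On the left Sec23a (0.46) and Sec24a (0.38) lie at one end and Tfg (−0.43) and Sec23b (−0.48) at the other; on the right Xbp1 (0.83) lies farthest from 0.

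The spread between rats differed strongly among these genes. For Tfg the coefficient of variation was 2.02% among vehicle and 2.93% among FSH rats, below the 3.14% and 3.53% that counting 770 to 1244 reads gives by itself. For Tfg no spread between rats was detectable beyond counting error at this depth. A small spread within groups also raises a gene in the ranking that was known when Tfg was chosen. For Sec23b the coefficient was 30.9% among vehicle rats and 5.54% among FSH rats, where counting gives 3.46% and 3.79%. Sar1b and Sec24a had the opposite order, at 12.6% and 15.6% among FSH rats and 5.63% and 7.13% among vehicle rats. Whether the spread itself differed between the groups was not tested. Sec23a varied by 5.19% and 5.14% in the FSH and vehicle groups.

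**Figure D3:**
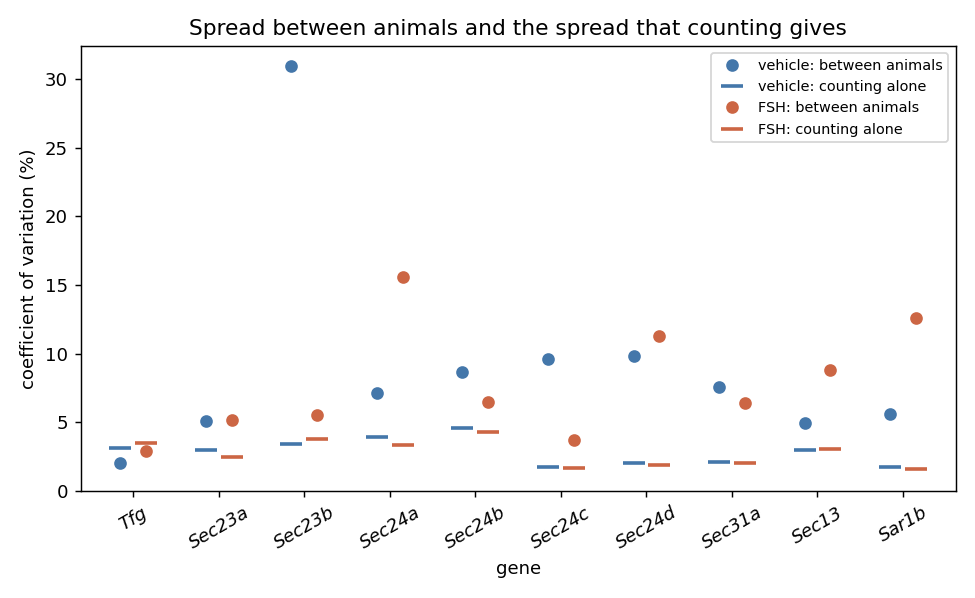
Coefficient of variation of CPM (y axis, %) for each gene (x axis) among 5 vehicle (blue) and 4 FSH (orange) livers as points, with the coefficient that read counting alone gives as short lines. Tfg lies at 2.02% and 2.93%, under its lines, and Sec23b among vehicle rats reaches 30.9%.

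Single rats stood at the edge of their group for several genes at once. Vehicle replicate 3 had the highest vehicle value of 5 of the 10 genes (Sec23b, Sec24a, Sec24d, Sec31a and Sar1b). FSH replicate 1 had the highest FSH value of 5 genes (Sec23a, Sec24a, Sec24d, Sec31a and Sec13), and FSH replicate 3 the lowest of 5 (Sec23a, Sec24c, Sec31a, Sec13 and Sar1b). This was not particular to the coat genes. In the lists below, vehicle replicate 3 had the highest vehicle sums of exit site, COPI, transcription factor and translocon genes. FSH replicate 1 had the highest FSH sums of exit site, cargo receptor and COPI genes. How often each rat stood at the edge over all genes was not counted. Alb took 19.4% of counts in FSH replicate 1 and 10.5% in FSH replicate 3, and the part of this in the coat values was not tested.

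Co-variation between rats was examined after the group means were removed, which makes it independent of the difference between the groups. Log2 CPM values (prior count 2) were centred within each group, and all 45 pairs of the 10 genes were compared over 9 rats by exact permutation of rats within groups (every order, 2-sided). Only Sec24a and Sec24d passed after Benjamini-Hochberg adjustment over the 45 pairs. Their Pearson's r was 0.92 (exact permutation p = 0.00104, adjusted p = 0.0469) and Spearman's rho 0.92 (exact permutation p = 0.00278, adjusted p = 0.125). Without the 2 rats farthest from the median of Sec24a, r was 0.91, and without any 1 rat it lay between 0.90 and 0.96. Scaled by total counts r was 0.92, but no pair then passed. These 2 subunits, from different subfamilies of the cargo adaptor, were high and low in the same rats, although Sec24d barely differed between the groups and Sec24a did.

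No other pair passed the adjustment. Sec24c and Sec31a had r = 0.82 (exact permutation p = 0.0135, adjusted p = 0.25) and rho = 0.78 (exact permutation p = 0.0389, adjusted p = 0.411), with r = 0.84 without the 2 farthest rats. Sec23a and Sec24a, the inner coat pair that was higher with FSH, had r = 0.74 (exact permutation p = 0.0167, adjusted p = 0.25) and rho = 0.75 (exact permutation p = 0.0205, adjusted p = 0.411), with r = 0.69 without the 2 farthest rats. Sec13 and Sar1b had r = 0.78 (exact permutation p = 0.0375, adjusted p = 0.338) and rho = 0.55 (exact permutation p = 0.173, adjusted p = 0.53). That r was 0.54 without the 2 farthest rats and 0.39 without FSH replicate 3.

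Within the subfamilies, none of the 3 paralogue pairs passed. Sec23a and Sec23b had r = −0.49 (exact permutation p = 0.255, adjusted p = 0.604) and rho of −0.10 (exact permutation p = 0.847). Without the 2 farthest rats r was 0.62, so the sign rested on those rats. Sec24a and Sec24b had r = −0.53 (exact permutation p = 0.133, adjusted p = 0.488) and rho of −0.58 (exact permutation p = 0.129), with r = −0.38 without the 2 farthest rats. Sec24c and Sec24d had r = 0.33 (exact permutation p = 0.407, adjusted p = 0.733) and rho of 0.33 (exact permutation p = 0.431), with r = 0.53 without the 2 farthest rats. The divergent neighbours Sec24a and Sar1b had r = 0.56 (exact permutation p = 0.297, adjusted p = 0.655) and rho of 0.68 (exact permutation p = 0.19), with r = 0.44 without the 2 farthest rats. Tfg and Sec23a, which differed in opposite directions between the groups, had r = −0.32 within them (exact permutation p = 0.43, adjusted p = 0.743) and rho of −0.27 (exact permutation p = 0.505). Their r was −0.48 without the 2 farthest rats and 0.43 when scaled by total counts. The spread of Tfg did not exceed counting error, so its correlations cannot tell co-variation between rats from counting noise. All points share a library's scaling, which can move 2 genes of a rat together.

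**Figure D4:**
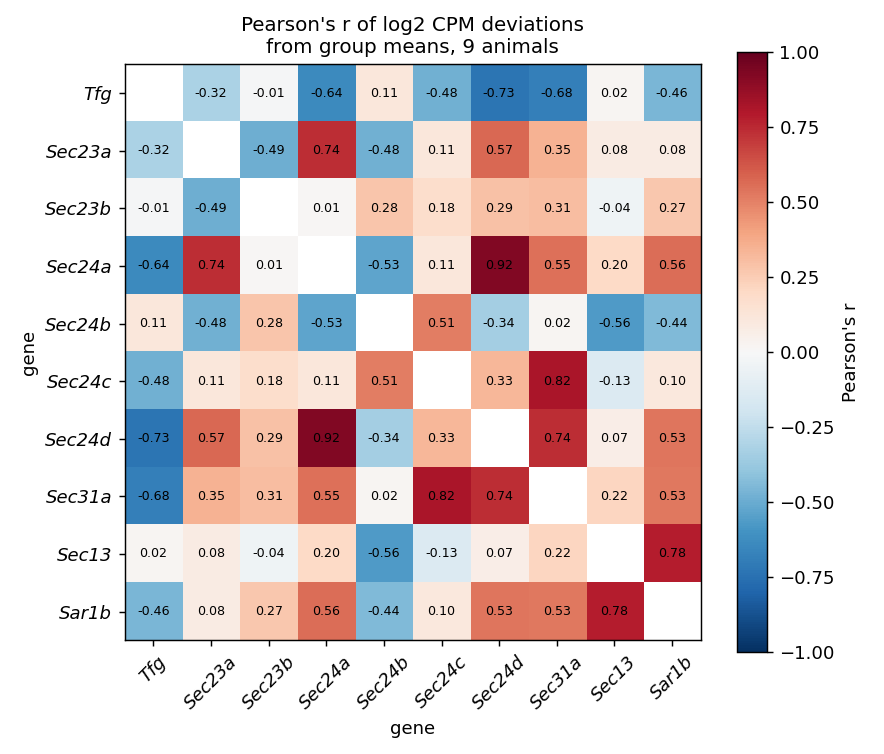
Pearson's r (colour and number) of log2 CPM deviations from the group means over 9 rats, for each pair of the 10 genes on both axes. Sec24a with Sec24d has the highest value (0.92). The negative values of Tfg with Sec24d (−0.73), Sec31a (−0.68) and Sec24a (−0.64) did not pass. Scaled by total counts they became −0.18, −0.25 and −0.17. The spread of Tfg did not exceed counting error, so its values cannot tell co-variation between rats from counting noise.

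The genes around the coat gave no call. In the 5 lists of ER exit site regulators, cargo receptors, COPI coat and retrieval, ER membrane transcription factors and the translocon, 82 of 90 listed symbols were tested and 0 passed an edgeR FDR of 0.05. At an unadjusted p under 0.05 there were 6 of 82, against 11.6% of all genes tested; 4 were higher and 2 lower with FSH. With DESeq2, which called 1.54% of all genes, 2 of these 82 passed, Creb3l3 and Xbp1. Of the 82 genes, 33 had a positive and 49 a negative log2 fold change (median −0.03). The CPM of Creb3l3 and Kdelr1 lay wholly above the vehicle range with FSH, and that of Cnih1 wholly below it. These are 2 and 1 of 82, against 2.19% and 1.92% of all genes tested.

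Among ER exit site regulators (21 of 24 tested, 8 positive and 13 negative) the smallest p belonged to Preb, the exchange factor that loads Sar1. It stood at 57.6 ± 2.97 CPM (SD, n = 5) in vehicle rats and 65.3 ± 3.43 CPM (n = 4) in FSH rats, a log2 fold change of 0.18 (SE 0.07) at an edgeR adjusted p of 0.362. The SNARE proteins Gosr2 (−0.14, SE 0.07) and Stx5 (0.15, SE 0.08) and the Sec23-binding protein Sec23ip (0.15, SE 0.08) followed, with edgeR adjusted p from 0.496 to 0.508.

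Among cargo receptors (19 of 20 tested, 4 positive and 15 negative) Tmed5, of the p24 family, was at 17.9 ± 2.28 CPM (SD, n = 5) in vehicle rats and 23.6 ± 2.02 CPM (n = 4) in FSH rats, a difference of 0.39 on the log2 scale (SE 0.10) at an edgeR adjusted p of 0.222. Other p24 proteins had negative values, such as Tmed7 (−0.18, SE 0.09) and Tmed1 (−0.18, SE 0.10). Cnih1, a cornichon receptor, stood at 36.9, 41.1, 34.6 and 40.5 CPM with FSH and 47.6, 43.1, 49.3, 42.0 and 44.3 CPM with vehicle. This is a log2 fold change of −0.24 (SE 0.08) at an edgeR adjusted p of 0.317. Every FSH rat lay below every vehicle rat for Cnih1, as for 1.92% of all genes tested, but the difference did not pass the threshold.

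In the COPI coat and retrieval list, which serves the return route to the ER, 17 of 18 were tested, 11 positive and 6 negative, with a median of 0.04. Copb2, a coat subunit, had 0.18 (SE 0.08, edgeR adjusted p = 0.446), Kdelr1, a receptor that returns ER residents, 0.11 (SE 0.06), and the GTPase activators Arfgap2 and Arfgap1 −0.14 (SE 0.07) and 0.13 (SE 0.08), the last being 0.085 if FSH replicate 1 was left out and 0.19 if FSH replicate 3 was. In the translocon and signal recognition list 16 of 19 were tested, 4 positive and 12 negative. Srp9 had −0.18 (SE 0.07, edgeR adjusted p = 0.399), Ssr2 −0.21 (SE 0.11), Ssr1 −0.18 (SE 0.10, and −0.12 without vehicle replicate 3) and Srpra 0.19 (SE 0.11, and 0.088 without FSH replicate 4).

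The ER membrane transcription factor list (9 of 9 tested, 6 positive and 3 negative) also counted Mbtps1 and Mbtps2, which are proteases, both positive. It held Xbp1, which had the largest log2 fold change of the 82 genes. Creb3l3, a hepatic factor released from the ER membrane, stood at 669, 694, 670.0 and 708 CPM with FSH and at 523, 487, 557, 532 and 545 CPM with vehicle. The groups did not overlap (0.37, SE 0.07, edgeR adjusted p = 0.175). Xbp1, a regulator of secretory capacity whose mRNA is spliced under ER stress, stood at 172, 142, 201 and 257 CPM with FSH and at 83.1, 74.5, 139, 98.5 and 146 CPM with vehicle. This is a log2 fold change of 0.83 (SE 0.23) at an edgeR adjusted p of 0.243. FSH replicate 2 lay within the vehicle range for Xbp1, and gene counts do not separate its spliced form. Creb3l1 and Atf6b had −0.27 (SE 0.19) and −0.14 (SE 0.11), which moved to −0.14 without vehicle replicate 2 and to −0.049 without FSH replicate 3.

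Main cargo transcripts were also read out. Alb was at 149651 ± 16694 CPM (SD, n = 5) in vehicle rats and 142409 ± 46817 CPM (n = 4) in FSH rats, a log2 fold change of −0.07 (SE 0.21) at an edgeR adjusted p of 0.928, and its sign turned without FSH replicate 3 (0.058), while without FSH replicate 1 it was −0.31. Apob, the structural protein of very low density lipoprotein, was at 3509 ± 229 CPM in vehicle rats and 3940 ± 373 CPM in FSH rats (log2 fold change 0.17, SE 0.10, edgeR adjusted p = 0.552). Mttp, which loads lipid on it, was at 359.8 ± 13.7 CPM in vehicle rats and 429 ± 53.0 CPM in FSH rats (log2 fold change 0.26, SE 0.09, edgeR adjusted p = 0.35). FSH replicate 3 had the lowest FSH value of both Apob and Mttp, at 3523 and 359.9 CPM, as it did of Sar1b. That rat also had the lowest FSH sums of the exit site, cargo receptor, COPI and translocon lists and of the hepatocyte markers. Its sum of the ER membrane transcription factor list was not the lowest, and its blood marker sum was the highest. The low values were thus not particular to Sar1b, Apob and Mttp.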

How the data were processed

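Messenger RNA libraries of 9 rat livers were made with a stranded paired-end kit, per the labels' protocols. The deposited table holds read counts per gene, not normalised by the authors. STAR, edgeR, DESeq2 and build rn6 are named in the submitters' processing notes, without versions or roles; for annotation and strand setting the sources used here give nothing. Columns were matched to samples by the labels. Libraries of 1 group differed beyond sampling noise (chi-square of at least 25.9 per degree of freedom).

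All genes were fitted together in R 4.3.3 with edgeR 4.0.16 (quasi-likelihood F-test, 2-sided, TMM, filterByExpr, Benjamini-Hochberg, FDR 0.05). SE was derived from the fold change and F. CPM used the TMM factors. Alternatives were other scalings and filters, DESeq2 1.42.0, limma 3.58.1 (voom), sva 3.50.0, an FDR of 0.10, a replicate block and leaving out each rat. The fit was checked on simulated data. The 10 genes and the lists were chosen with earlier results of these data known. Named around the coat were genes past the FDR, or else up to 4 smallest p-values per list, with Alb, Apob and Mttp; among pairs, those past the adjustment and the paralogues; the other pairs were added after their values were seen. RefSeq sequences are of GRCr8, and no rn6 coordinates are given.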

Additional observations from a re-analysis of the deposited data

Results flagged for a closer look

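Within each group the highest or lowest rat was compared with the gap among the others for 80 sets of values (CPM of the named genes, ratios and the summed coat), and 3 stood apart; about 4 would by chance. Sec13 in FSH replicate 3 was the lowest of its group at 37.8 CPM, with the next rat at 45.3 CPM. Tmed1 in FSH replicate 4 was the lowest at 13.0 CPM, with the next at 14.4 CPM. The ratio of Sec23a to Sec23b in FSH replicate 1 was the highest at 2.79, with the next at 2.31.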

How the results depend on the processing

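Over all genes, 4 passed an FDR of 0.05; this was 184 with DESeq2, 12 at an FDR of 0.10, 2 with 1 surrogate variable and 0 to 4 when 1 rat was left out. Of the 10 coat genes, 1 passed (Tfg); 2 passed with DESeq2, with limma-voom and at an FDR of 0.10 (Tfg and Sec23a), and 0 with total counts alone, no filter, 1 surrogate variable, the replicate block, or any 1 rat left out (0 to 0). In the surrounding lists 0 passed, and 2 with DESeq2. The cause of these shifts was not tested. Replicate numbers did not pair the rats: same-numbered deviations correlated at −0.042 to 0.057, and 1 of 4 FSH rats correlated best with its own number. With the replicate block over the 8 rats numbered 1 to 4, 5 genes passed, and without the block in the same 8 rats (chosen after seeing the data) 2 genes and 0 coat genes. Sec31a, at 0.0019, turned to −0.0029 with DESeq2-like size factors, −0.016 with total counts, −0.0030 with DESeq2, −0.0092 with limma-voom, −0.00011 with no filter and −0.0051 with the 1 CPM filter, and lay between −0.029 and 0.042 without 1 rat. Sec24d lay between −0.011 and 0.11, and Alb between −0.31 and 0.058, without 1 rat. Of 45 pairs 1 passed, 0 with total counts or Spearman's rho and 0 to 0 without 1 rat, where 576 or 720 orders keep a single pair at an adjusted p of at least 0.0781 or 0.0625 by construction. At 364 reads or more per library, depth limited none of the 10 genes' detection.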

Other observations

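Further organisers and receptors of ER exit, picked by role after their values were seen, differed little between the groups. The exit site scaffolds Sec16a and Sec16b had log2 fold changes of 0.07 (SE 0.07, edgeR adjusted p = 0.723) and −0.011 (SE 0.09, edgeR adjusted p = 0.979). Mia3, which helps large cargo such as collagen leave the ER, had −0.11 (SE 0.08, edgeR adjusted p = 0.658), and its partner Mia2 −0.03 (SE 0.11, edgeR adjusted p = 0.946). Among receptors of secreted liver proteins, Surf4 had −0.08 (SE 0.10, edgeR adjusted p = 0.809), and Lman1 and Mcfd2, which together carry coagulation factors, 0.0010 (SE 0.12) and −0.10 (SE 0.13), with edgeR adjusted p of 0.999 and 0.832.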
